A study of Mus musculus with 15 samples.

Results

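The miR-379/miR-410 cluster is an array of miRNA hairpins on mouse chromosome 12, named after its outermost well-known hairpins, and its downstream section lies within the noncoding transcript Mirg. Members were chosen by name, as every listed mature miRNA whose hairpin is on a list of 40 hairpins of the cluster. No measured value enters that rule, but the cluster was chosen with earlier results of these data known. This gave 43 of the 396 mature miRNAs in the deposited table, from 28 hairpins. They comprised 21 5p arms and 22 3p arms, and 15 hairpins were listed with both arms. A further 6 hairpins had the 5p arm only, and 7 the 3p arm only. miR-496a-3p was listed but is not a member, since the list spells that hairpin without the letter.

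The cluster belongs to the imprinted Dlk1-Dio3 domain, where noncoding RNAs, this miRNA array among them, are expressed from the maternal chromosome. The hairpins are cut out of long primary transcripts, each hairpin gives a 5p and a 3p arm, and the arm retained in Argonaute pairs with target mRNAs through its seed, bases 2 to 8. The cluster is best known in brain, where its transcription responds to neuronal activity through Mef2 in rat neurons, and where its members act on dendrites and synapses.

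Small RNA was sequenced from midbrain of C57BL/6 mice, in 7 samples labelled A30P alpha-synuclein +/+ (replicates 1, 2, 3, 4, 6, 7 and 8) and 8 labelled WT (replicates 1 to 8), all 6 months old. A30P is a form of the presynaptic protein alpha-synuclein linked to familial Parkinson's disease. The sources used here do not say how the A30P form was introduced or which promoter drives it. Nothing in the labels says that each sample is a separate animal, and the spread behind every p-value here is that between samples, possibly technical only.

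Depth differed widely between the groups. The listed miRNAs held 21731 to 3500431 reads per library in A30P (median 92827), against 724813 to 9762286 in WT, and 4 of the 7 A30P libraries had under 100000. Reads were found for 10 to 43 cluster members per A30P library (median 24), against 40 to 43 in WT. In A30P libraries each read stood for 0.174 to 56.4 normalized counts, against 0.0848 to 0.806 in WT, so 3 reads in the shallowest A30P library equal 169 normalized counts. The library columns carry a letter tag that is the same for all samples of a genotype and differs between genotypes; whatever it marks cannot be told apart from genotype. In these bulk samples, fewer cells of a type and less RNA per cell cannot be told apart either.

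Most listed miRNAs differed between the groups, which sets the background for the cluster. With limma on log2(normalized count + 1) and Benjamini-Hochberg adjustment over all 396 miRNAs, 79.3% passed an adjusted p of 0.05, 8.33% as higher and 71.0% as lower in A30P. Of the 43 members, 36 passed, 4 as higher (9.30%) and 32 as lower (74.4%). The median log2 fold change of the members was -2.78, beside -2.57 over all listed miRNAs. The cluster as a whole was thus called close to the background rate in each direction, and what follows concerns which members stood on which side. Those higher were miR-379-5p, miR-381-3p, miR-485-5p and miR-409-3p.

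The sequences below are the mature miRNAs from RefSeq (GRCm38.p6), 5′ to 3′, for the members that were higher, the opposite arms whose share of their hairpin changed, and the abundant members that were lower or not called; capitals mark the seed. Sequences were matched for 40 of the 43 members; miR-485-5p, miR-487b-3p and miR-376c-3p are named only.
miR-379-5p: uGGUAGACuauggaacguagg
miR-379-3p: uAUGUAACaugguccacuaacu
miR-411-5p: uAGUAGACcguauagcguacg
miR-411-3p: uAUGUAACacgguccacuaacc
miR-381-3p: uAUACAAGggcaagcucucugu
miR-300-3p: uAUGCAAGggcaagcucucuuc
miR-543-3p: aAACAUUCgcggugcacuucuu
miR-495-3p: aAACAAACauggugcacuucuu
miR-382-5p: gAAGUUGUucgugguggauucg
miR-134-5p: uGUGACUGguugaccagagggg
miR-668-3p: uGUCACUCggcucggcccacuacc
miR-485-3p: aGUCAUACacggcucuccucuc
miR-541-5p: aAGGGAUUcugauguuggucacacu
miR-409-5p: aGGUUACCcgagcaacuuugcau
miR-409-3p: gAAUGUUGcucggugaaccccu
miR-369-5p: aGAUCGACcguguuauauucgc
miR-369-3p: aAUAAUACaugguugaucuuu
miR-410-3p: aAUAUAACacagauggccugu

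Among the members with a sequence, miR-379-3p and miR-411-3p share a seed. They are of equal length and differ by 2 substitutions, U10C and U22C, counted from 1 at the 5′ end with the base of miR-379-3p first. miR-300-3p and miR-381-3p differ by 3, G4A, U21G and C22U, with the base of miR-300-3p first, and the first of these lies in the seed. miR-495-3p and miR-543-3p differ by 4, A6U, A7U, A9G and U10C, with the base of miR-495-3p first. miR-376a-3p and miR-376b-3p differ by 3, G4A, A13C and G20U, with the base of miR-376a-3p first. The sources used here do not say how reads matching either of such similar miRNAs were counted, so values of these members are uncertain to that extent. The seed of miR-410-3p is also that of miR-344d-3p and miR-344e-3p, and the seed of miR-329-3p is that of miR-362-3p, none of which belongs to the cluster.

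miR-379-5p and miR-381-3p were higher in A30P, and they were the only members above WT with no overlap between the groups. The share of all listed miRNAs that were higher without overlap was 4.04%, against 2 of the 43 members. miR-379-5p comes from the first hairpin of the array (chr12:109709060-109709125, plus strand, GRCm38.p6, in no annotated host gene on that strand). It had 8861 (lowest), 11053 (median) and 14094 (highest) normalized counts in A30P libraries, against 680, 2695 and 3941 in WT libraries. The groups did not overlap, and the A30P values were close to each other although their depths differed by far. The means were 10979 ± 1664 in A30P and 2411 ± 1162 in WT (SD, n = 7 and 8), a ratio of 4.55 and a log2 fold change of 2.40 ± 0.38 (SE, limma adjusted p = 2.0e-05).

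miR-381-3p, one of the members needed for activity-dependent dendrite growth in rat hippocampal neurons, comes from a hairpin further along (chr12:109726822-109726896, plus strand, also in no annotated host gene). It had 9454 (lowest), 13423 (median) and 19018 (highest) normalized counts in A30P, against 1280, 2527 and 3485 in WT. Again all A30P libraries lay above all WT libraries. The means were 13614 ± 3187 and 2486 ± 701, a ratio of 5.48 and a log2 fold change of 2.48 ± 0.28 (limma adjusted p = 5.2e-07). Both miRNAs also passed edgeR's quasi-likelihood test on whole reads, at a log2 fold change of 3.48 each (adjusted p = 4.8e-08 for miR-379-5p and 1.6e-07 for miR-381-3p). The sequence relative of miR-381-3p, miR-300-3p, from the neighbouring listed hairpin, was not higher: it averaged 549 ± 308 in A30P and 999 ± 388 in WT.

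**Figure D1:**
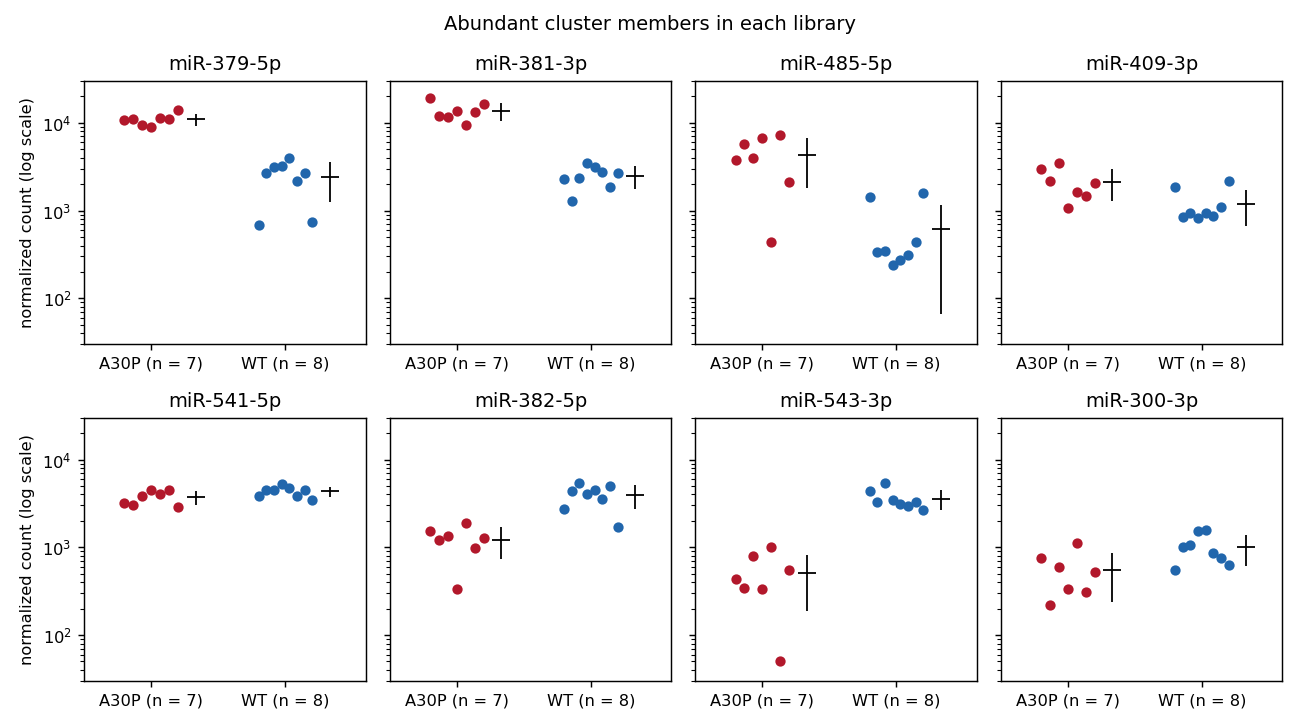
Normalized counts (log axis) of 8 abundant cluster members in each A30P library (red, left, n = 7) and each WT library (blue, right, n = 8); the cross beside each group is the mean ± SD. miR-379-5p and miR-381-3p are above every WT library in all A30P libraries, miR-543-3p is below every WT library in all of them, and miR-485-5p has 1 A30P library, replicate 6, among the WT values.

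miR-485-5p and miR-409-3p were also higher, with overlap between the groups. miR-485-5p, known to limit the synaptic vesicle protein SV2A in rat hippocampal neurons, lies within Mirg (hairpin chr12:109734902-109734974, overlapping an exon). It had 433.2 (lowest), 4023 (median) and 7275 (highest) normalized counts in A30P, against 239, 341.04 and 1592 in WT. The lowest A30P value was that of replicate 6, the deepest A30P library, and the highest WT values, 1423 and 1592, were those of replicates 1 and 8, the shallowest WT libraries; the part of depth in this result was not tested. The means were 4299 ± 2477 in A30P and 619 ± 553 in WT, with a log2 fold change of 2.80 ± 0.59 (limma adjusted p = 0.00038). Without the 4 A30P libraries under 100000 reads the log2 fold change was 1.72 and the adjusted p 0.058, and the authors' deposited table gives a log2 fold change of -0.49 (adjusted p = 0.329).

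miR-409-3p lies in an intron of Mirg (hairpin chr12:109743158-109743236). It had 1072 (lowest), 2057 (median) and 3454 (highest) normalized counts in A30P, against 826, 934 and 2180 in WT. Here too WT replicates 1 and 8 were the WT libraries nearest to A30P, at 1839 and 2180. The means were 2121 ± 847 in A30P and 1190 ± 520 in WT, with a log2 fold change of 0.83 ± 0.36 (limma adjusted p = 0.0393). The call was lost in 10 of the 15 fits that left out 1 library, and with libraries scaled by their listed reads the log2 fold change was 0.15 (adjusted p = 0.785). edgeR with TMM scaling gave 1.68 (adjusted p = 0.0076).

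The members that lead the cluster in WT were not those that rose. miR-541-5p, first of the members in WT, had 2875 (lowest), 3838 (median) and 4515 (highest) normalized counts in A30P, against 3489, 4495 and 5228 in WT. The groups overlapped for most of their range, and with means of 3719 ± 689 and 4352 ± 560 the log2 fold change was -0.24 ± 0.25 (limma adjusted p = 0.377). Its call depended on the scaling: limma called it higher with TMM scaling (0.89, adjusted p = 0.0218) and with listed reads without miR-148a-3p and miR-151-3p (0.62, adjusted p = 0.0423), and lower with listed reads (-0.92, adjusted p = 0.0197). miR-382-5p, second in WT, fell to 339 (lowest), 1287 (median) and 1898 (highest) in A30P, against 1709, 4223 and 5416 in WT. Only A30P replicate 6 lay above the lowest WT library, WT replicate 8. The means were 1224 ± 484.8 and 3915 ± 1206, with a log2 fold change of -1.75 ± 0.38 (adjusted p = 0.00044), a call that edgeR with TMM scaling did not make (-0.50, adjusted p = 0.312).

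miR-543-3p, ranked after these in WT and one of the members that act on N-cadherin in developing mouse cortex, fell without overlap. It had 51.2 (lowest), 439 (median) and 1005 (highest) normalized counts in A30P, against 2639, 3261 and 5379 in WT. Every A30P library, the deepest included, lay below every WT library. The means were 503 ± 316 and 3561 ± 901, with a log2 fold change of -3.19 ± 0.50 (limma adjusted p = 1.8e-05); edgeR with TMM scaling gave -1.70 (adjusted p = 0.0059). In all, 10 of the 43 members were lower without overlap, where 23.7% of all listed miRNAs were.

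miR-300-3p and miR-495-3p, the sequence relatives of miR-381-3p and miR-543-3p, were both lower by limma, the first by a narrow margin. miR-300-3p had a log2 fold change of -0.96 ± 0.42 (limma adjusted p = 0.0447), and its groups overlapped; edgeR with TMM scaling gave 0.37 (adjusted p = 0.465). The call was lost in 11 of the 15 fits that left out 1 library, and without the 4 A30P libraries under 100000 reads the log2 fold change was -0.42 (adjusted p = 0.396). miR-495-3p averaged 117 ± 181 normalized counts in A30P and 893 ± 539.1 in WT, with a log2 fold change of -4.64 (limma adjusted p = 0.0014) and -1.36 by edgeR (adjusted p = 0.042). Its A30P mean rests largely on replicate 6, at 517, and 2 A30P libraries had no read of it.

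At the 5′ end of the array, the opposite arm of miR-379 and both arms of the next hairpin, miR-411, fell. miR-379-3p averaged 18.8 ± 22.8 normalized counts in A30P, against 289 ± 132 for WT (log2 fold change -5.20, limma adjusted p = 0.00012). miR-411-3p, with the same seed, averaged 48.3 ± 36.8 and 574 ± 158 (-4.25, adjusted p = 0.00016), and its highest A30P library, at 119, was below the lowest WT library, at 271. miR-411-5p averaged 16.9 in A30P and 373 in WT (-5.50, adjusted p = 1.0e-04), and its groups overlapped, with A30P replicate 6 at 70.0 above WT replicate 8 at 40.4. edgeR with TMM scaling also called these 3 arms lower, at log2 fold changes between -2.47 and -2.17. The A30P means of the 3 arms lie under the 169 normalized counts that 3 reads make in the shallowest library, so such levels were not detectable at the depth of the shallowest libraries.

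At the 3′ end, within Mirg, the members with high levels in WT fell as well, apart from miR-541-5p, miR-134-5p, miR-485-5p and miR-409-3p. miR-369-3p, which like miR-543-3p acts on N-cadherin in mouse cortex, had reads in 1 of the 7 A30P libraries and averaged 2.34 normalized counts there, against 335 ± 318 in WT (log2 fold change -6.55, limma adjusted p = 2.5e-05). The WT values were themselves wide, with 4.70 as the lowest and 875 as the highest. The 1 A30P library with reads, replicate 6 at 16.4, lay within that range, above WT replicates 1 (15.3) and 8 (4.70). miR-369-5p averaged 71.4 in A30P and 450 in WT (-3.44, adjusted p = 0.0016). miR-410-3p averaged 3.18 and 199.6 (-6.42) with reads in 2 A30P libraries, and miR-668-3p averaged 7.66 and 295 (-6.90, adjusted p = 1.4e-06), also with reads in 2. miR-409-5p averaged 13.9 and 192 (-4.93, adjusted p = 1.0e-04). edgeR with TMM scaling called all 5 lower, and since most A30P libraries had no reads of several of them, the fitted fold changes depend on the pseudocount of 1.

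The remaining members above a mean of 100 normalized counts in either group split as follows. miR-323-3p (102 in A30P, 405 in WT), miR-329-3p (19.2 and 128) and miR-487b-3p (4.495 and 126.7) were lower by limma. edgeR with TMM scaling called miR-487b-3p lower too, but neither miR-323-3p (adjusted p = 0.185) nor miR-329-3p (adjusted p = 0.065). miR-329 is another hairpin needed for dendrite growth in rat neurons. miR-134-5p, which limits dendritic spine size through Limk1 in rat hippocampal neurons, averaged 299.9 ± 97.7 in A30P, against 460.1 ± 58.5 in WT, and limma did not call it (-0.67 on the log2 scale, adjusted p = 0.128). miR-666-5p (246 and 394, adjusted p = 0.1005) and miR-380-5p (112 and 96.7, adjusted p = 0.347) did not pass either, although edgeR with TMM scaling called miR-380-5p higher (1.87, adjusted p = 0.0056).

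Of the opposite arms of these abundant members, miR-323-5p (2.43 in A30P, 97.7 in WT), miR-329-5p (33.2 and 86.4), miR-380-3p (6.94 and 65.7), miR-485-3p (0.578 and 8.87) and miR-668-5p (0.910 and 4.27) were lower by limma. edgeR with TMM scaling called only miR-323-5p of these lower; it gave adjusted p = 0.82 for miR-329-5p, 0.070 for miR-380-3p and 0.063 for miR-485-3p, and did not test miR-668-5p, whose limma call was lost without the 4 A30P libraries under 100000 reads (-1.11, adjusted p = 0.073). miR-410-5p averaged 28.0 in A30P, against 6.34 in WT, and limma did not call it (0.80 on the log2 scale, adjusted p = 0.360), while edgeR with TMM scaling called it higher (2.67, adjusted p = 0.00062). Its A30P mean rests on few reads: 6 reads made 105 normalized counts in replicate 1, and 1 read made 51.2 in replicate 7. In replicate 6, the deepest A30P library, 42 reads made 7.31, within the WT range. Without the 4 A30P libraries under 100000 reads the log2 fold change of miR-410-5p was -0.045. The other 14 members had WT means of 4.21 to 89.9 and A30P means of 0.174 to 27.8. Of these, 12 were lower, 0 higher and 2 not called by limma; edgeR with TMM scaling tested 7 of them and called miR-667-3p lower and miR-667-5p, its opposite arm, higher (named after their values were seen).

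**Figure D2:**
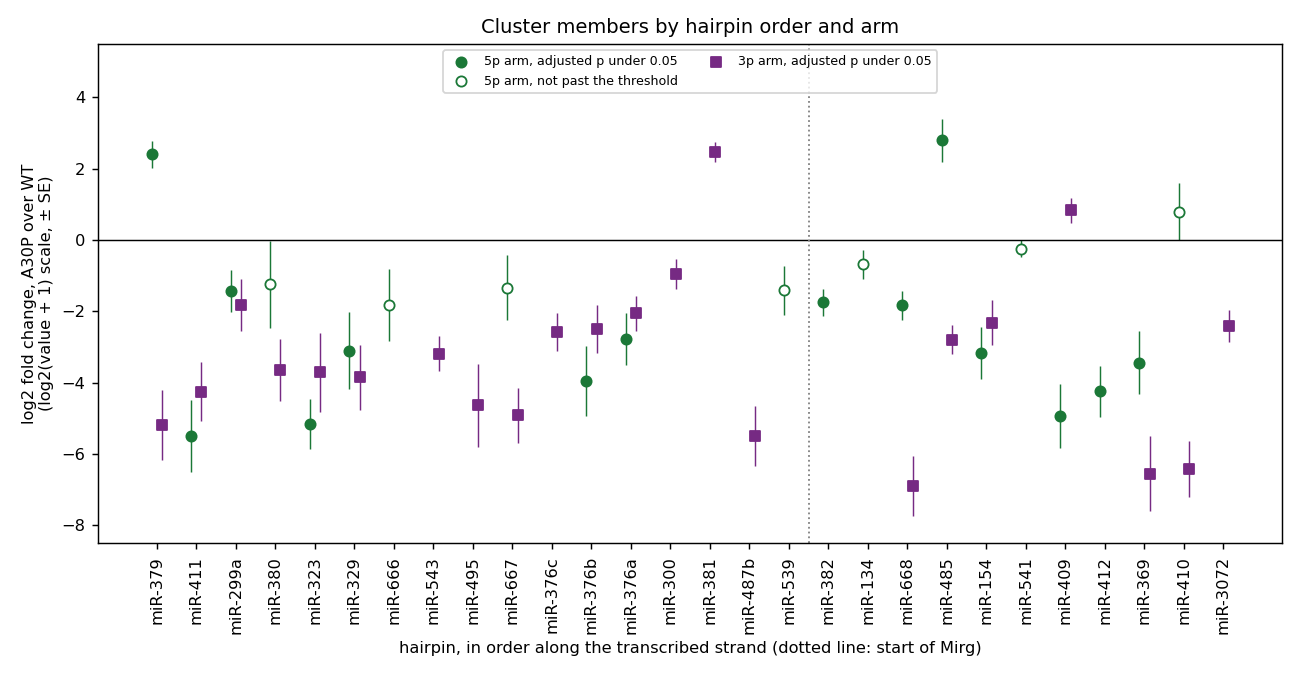
Log2 fold change, A30P over WT, of all 43 members on the log2(value + 1) scale (limma, ± SE), with hairpins in order along the transcribed strand and the 5p (green circles) and 3p arms (purple squares) side by side; filled symbols passed an adjusted p of 0.05 and the dotted line marks the start of Mirg. The 4 members above 0 that passed lie 2 on each side of the line, and most other members lie below 0.

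The members that rose stood on both sides of the start of Mirg. The listed hairpins span 38.9 kb (chr12:109709060-109747960). Of the 26 members upstream of Mirg (hairpins miR-379 to miR-539) 2 were higher, 20 lower and 4 not called by limma. Of the 17 within Mirg (chr12:109729764-109749460, GENCODE vM21), hairpins miR-382 to miR-3072, 2 were higher, 12 lower and 3 not called. The lower calls were 76.9% upstream of Mirg and 70.6% within it, beside 71.0% over all listed miRNAs. The higher calls were 7.69% and 11.8%, beside 8.33%. Both sides thus lay near the background. As a description, Spearman's rho between the log2 fold change and the distance from the start of the cluster was 0.07 over the 43 members, and rho with the GC content of the mature sequence was 0.19 over the 40 with a sequence; these members share libraries and depth. All 22 3p arms were called, 2 as higher and 20 as lower, while of the 21 5p arms 2 were higher, 12 lower and 7 not called. Over all listed miRNAs, arms together, 79.3% were called, and no share by arm was computed for them. Whether the arms differ was not tested.

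The make-up of the cluster's reads differed between the groups, while their share of the listed reads overlapped. The cluster held 3.65% ± 1.22 of the listed reads in A30P (1.97% to 5.57%) and 3.68% ± 0.424 in WT (3.14% to 4.56%), a difference of -0.034 percentage points. That share depends on the denominator, which includes miR-148a-3p and miR-151-3p: without these in the total, the cluster held 10.4% ± 1.97 in A30P and 3.73% ± 0.449 in WT. These 2 miRNAs thus held a large part of the listed reads in A30P and a small part in WT. Among A30P libraries their part was smallest in replicate 6, where the cluster held 5.57% with and 6.47% without them. In A30P replicate 4 it held 2.94% and 12.5%. Together, miR-379-5p and miR-381-3p made up 64.1% ± 5.29 of the cluster's reads in A30P (58.2% to 74.2%) and 19.1% ± 3.44 in WT (14.2% to 24.5%). The rest of the cluster, with these removed, held 1.32% ± 0.540 of the listed reads in A30P (0.739% to 2.15%) and 2.98% ± 0.375 in WT (2.54% to 3.74%), without overlap. These members were set aside after their values were seen, so both values are descriptions. The lower share of the rest also depends on the denominator. It does not carry over to a total without miR-148a-3p and miR-151-3p.

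**Figure D3:**
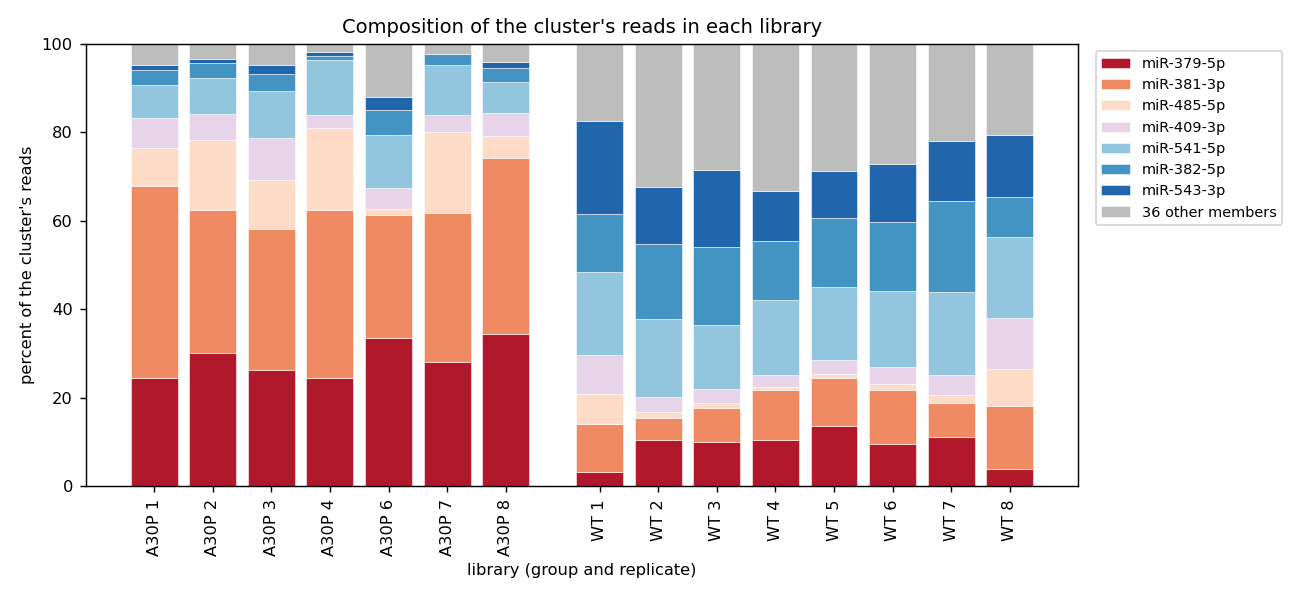
Share of the cluster's reads (percent, stacked) taken by 7 abundant members and by the other 36 together, in each A30P library (left) and each WT library (right). miR-379-5p and miR-381-3p at the foot of the bars take 58.2% to 74.2% in A30P and 14.2% to 24.5% in WT, while the grey remainder is thinner in every A30P library than in every WT library.

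Shares within the cluster do not depend on the scaling between libraries. miR-379-5p alone held 28.8% ± 4.07 of cluster reads in A30P and 9.09% ± 3.59 in WT, and miR-381-3p 35.3% ± 5.34 and 9.99% ± 2.95. miR-485-5p held 11.2% ± 6.66 and 2.81% ± 3.00. miR-541-5p held 9.85% ± 2.29 and 17.3% ± 1.38, although its level was not called different. By mean level, miR-381-3p, miR-379-5p and miR-485-5p ranked 1, 2 and 3 in A30P, and these ranked 4, 5 and 9 in WT, where miR-541-5p, miR-382-5p and miR-543-3p ranked 1, 2 and 3. The top 3 members of each genotype took 75.3% of cluster reads in A30P and 46.8% in WT. Over all 43 members the order by mean level was still alike, with Spearman's rho of 0.84 as a description.

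The balance between the arms of a hairpin was compared as the 5p share of the reads of both arms, a value in which library scaling cancels. It was tested for hairpins with at least 10 reads over both arms in at least 4 libraries of each group, by an exact two-sided permutation test over samples with Benjamini-Hochberg adjustment over the 43 hairpins tested in the whole table (a count that happens to equal that of the members). Of these 43 hairpins, 72.1% passed an adjusted p of 0.05. Of the 15 cluster hairpins with both arms listed, 4 had enough reads, and all 4 passed, in a table where most hairpins did.

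In the hairpins miR-379 and miR-485, whose 5p arms were higher and 3p arms lower by limma, the 5p share was higher. The share is made from the same reads as those levels, so it is not a separate result on direction. The 5p arm of miR-379 held 99.8% ± 0.201 of its reads in A30P (99.5% to 100%, n = 7) and 89.0% ± 1.53 in WT (86.6% to 91.2%, n = 8), a difference of 10.8 points (exact permutation p = 0.000311, the smallest these groups allow; adjusted p = 0.00103). In the deepest A30P library, replicate 6, the 5p arm had 65496 reads and the 3p arm 336, and its share was still above that of every WT library. The 5p arm of miR-485 held 99.9% ± 0.164 in A30P and 98.0% ± 1.03 in WT, a difference of 1.96 points (exact permutation adjusted p = 0.00103). In the libraries with no miR-379-3p reads, A30P replicates 1, 4 and 7, the 5p arm had 609, 157 and 219 reads, which allows a 3p share of up to 0.493%, 1.91% and 1.37% (3 counts; counting error only). For miR-485, A30P replicates 1, 2, 4, 7 and 8 had no 3p read among 216, 289, 118, 142 and 817, which allows a 3p share of up to 1.39%, 1.04%, 2.54%, 2.11% and 0.367%. Since the 5p share of miR-485 was 96.5% to 99.2% in WT, the limits of replicates 1, 2, 4 and 7 reach into the WT range, and its separation between the groups is not firm at this depth.

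miR-409, whose 3p arm was higher and 5p arm lower by limma, moved towards the 3p arm, again in the same reads. Its 5p arm held 0.678% ± 1.05 of reads in A30P (0% to 2.93%) and 16.0% ± 8.07 in WT (3.55% to 25.9%), a difference of -15.3 points (exact permutation adjusted p = 0.00103). The WT libraries with the lowest 5p shares were replicates 1 and 8, at 3.55% and 5.23%, and they lay near the highest A30P library, replicate 6, at 2.93%. A30P replicates 4, 7 and 8 had no 5p read among 19, 29 and 799, which allows up to 15.8%, 10.3% and 0.375%; the limits of replicates 4 and 7 reach into the WT range. miR-369 had too few reads in 3 A30P libraries; in the other 4 its 5p arm held 95.7% ± 8.69 (82.6% to 100%), against 67.8% ± 22.3 in WT (39.8% to 97.5%). The groups overlapped, and although it passed (exact permutation p = 0.0242, adjusted p = 0.0347), the call was lost when any 1 of WT replicates 2 to 7 was left out and with the log2 ratio of the arms (adjusted p = 0.058), and 3 of the 4 A30P shares rest on 12 to 25 reads.

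**Figure D4:**
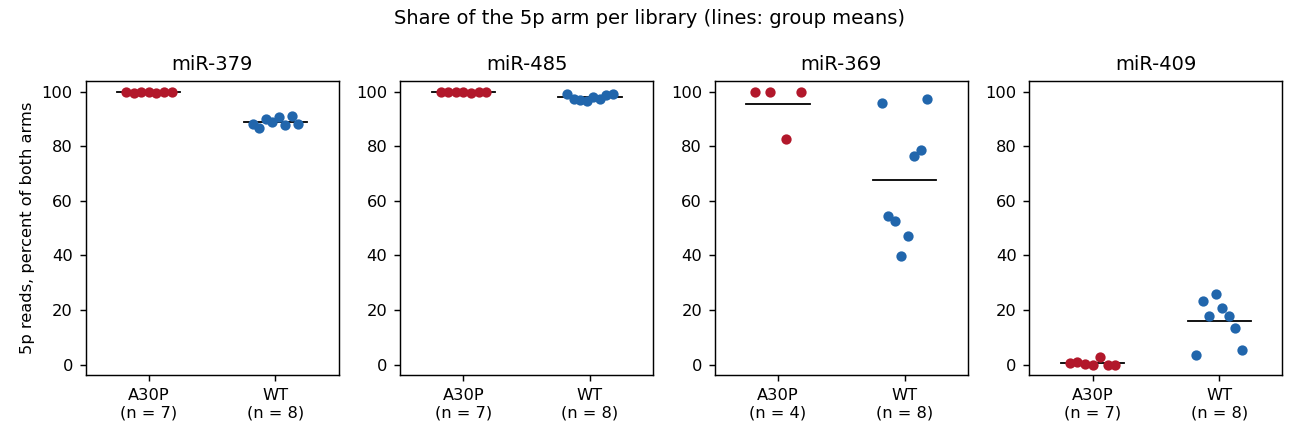
The 5p share of the reads of both arms (percent) for the 4 cluster hairpins with enough reads, in each A30P library (red, left) and each WT library (blue, right); the horizontal lines are group means. For miR-379 and miR-485 every A30P library is above every WT library, for miR-409 every A30P library is below every WT library, and for miR-369, with 4 A30P libraries, the groups overlap.

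The direction of several members depended on the test and on how libraries were scaled, and the comparison with edgeR under TMM scaling changes both at once. Relative to the main fit, the median log2 fold change over all miRNAs moved by 0.57 by edgeR with the deposited size factors. It moved by 0.74 by limma with TMM scaling and by 1.83 by edgeR with TMM scaling. The edgeR medians are over the fewer miRNAs that it tested. edgeR's quasi-likelihood test with TMM scaling on the whole reads recovered from the table tested 318 miRNAs, of which 55.0% passed, 19.5% as higher and 35.5% as lower. It tested 35 members and called 7 higher and 13 lower, with a median log2 fold change of -1.08 for the members beside -0.75 over all tested. The 4 members higher by limma were among the 7, together with miR-380-5p, miR-410-5p and miR-667-5p. All 13 lower calls were among the 32 of limma. In the authors' deposited table, 43.9% of all miRNAs had an adjusted p under 0.05, 9.85% as higher and 34.1% as lower, and 17 members did, 3 as higher and 14 as lower.

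**Figure D5:**
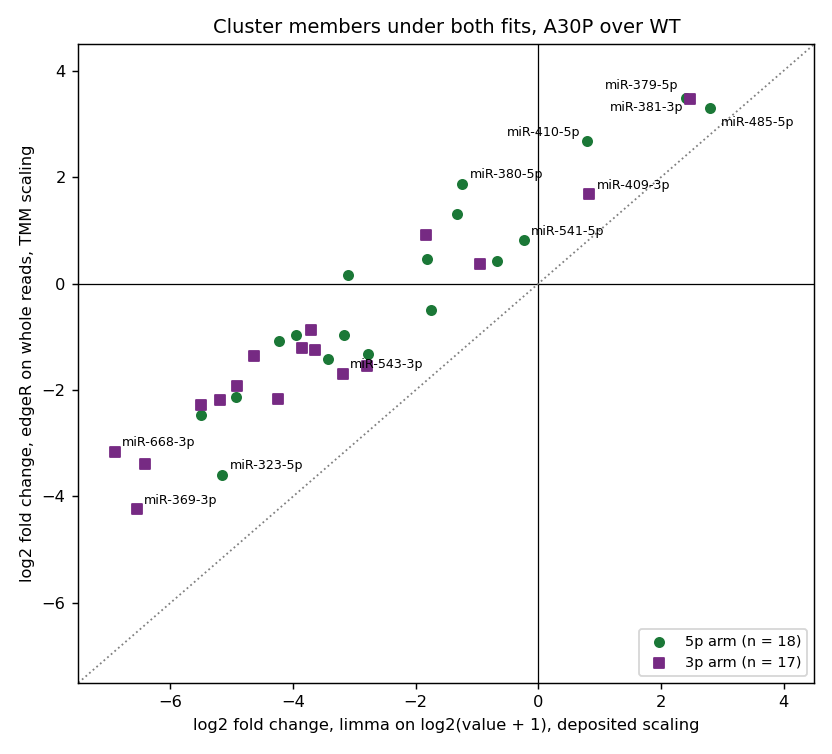
Log2 fold change, A30P over WT, of the 35 members tested by both methods, from limma on log2(value + 1) with the deposited scaling (x axis) and from edgeR on whole reads with TMM scaling (y axis); green circles are 5p arms, purple squares 3p arms, and the dotted line marks equal values. All points lie above the line, miR-379-5p and miR-381-3p are near 3.48 on the y axis, and members between the axes at the upper left, such as miR-541-5p and miR-380-5p, have opposite signs.

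Many lower calls fell on members with few reads in A30P. Of the 43 members, 9 had reads in all 7 A30P libraries and 20 had reads in 3 or fewer of them, while 40 had reads in all 8 WT libraries. All 43 passed the filter, a mean of at least 1 normalized count in either group. In 20 members the WT mean was at or above 169, the value of 3 reads in the shallowest library, and of these 4 were higher, 13 lower and 3 not called by limma, where 78.8% of all listed miRNAs above that level were called. A30P replicate 6, with 3500431 reads, had a depth like that of the WT libraries and had reads of all 43 members. It differed from the other A30P libraries in make-up too, since miR-148a-3p and miR-151-3p took a smaller part of its listed reads. In that library alone, 12 members were below every WT library, where 35.6% of all listed miRNAs were, 5 were above every WT library, where 10.1% were, and 26 were within the WT range. The 5 above were miR-379-5p, miR-381-3p, miR-380-5p, miR-666-5p and miR-667-5p. The 12 below included miR-543-3p, miR-379-3p, miR-411-3p, miR-409-5p, miR-410-3p and miR-668-3p. Of the 32 members lower by limma, 20 were not below every WT library in replicate 6.

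The miRNAs next to the cluster in the same imprinted domain are given beside it. Of 13 listed miRNAs on the Rtl1-antisense side, which lies upstream, 0 were higher, 8 lower and 5 not called by limma, beside 8.33% higher and 71.0% lower over all listed miRNAs, and edgeR with TMM scaling called 1 of 10 higher and 5 lower. miR-433-3p averaged 298.6 normalized counts in A30P and 6742 in WT, and miR-434-3p 366 and 8174, both lower. miR-127-3p, the most abundant of them, averaged 24416 and 28304 and was not called (log2 fold change -0.34, limma adjusted p = 0.327). These 13 held 3.05% ± 3.31 of listed reads in A30P and 7.03% ± 2.76 in WT. Of 8 other upstream miRNAs of the domain, 2 were higher (miR-770-3p and miR-673-3p), 4 lower and 2 not called. miR-496a-3p, a non-member only by the spelling of the list, comes from a hairpin inside the array and inside Mirg. It averaged 0.124 in A30P, from 5 reads in 1 library, and 4.48 in WT.

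Markers of cell types are set against the same background, in which most miRNAs were lower (71.0%). The 4 listed neuronal miRNAs (miR-124-3p, miR-128-3p and both arms of miR-9) were all lower by limma, and edgeR with TMM scaling called all but miR-9-5p (-0.95, adjusted p = 0.094). They had a summed level of 5305 to 50898 normalized counts in A30P and 36380 to 176899 in WT, and none was at 0 in a WT library. Of the 2 oligodendrocyte markers 1 was lower, of the 3 erythroid markers 1 was higher and 1 lower, of the 2 vascular markers 1 was higher and 1 lower, of the 2 choroid plexus markers 1 was lower, and of the 2 muscle markers 1 was higher. No microglial marker of the list was in the table. The part of cell composition in the changes of the cluster was not tested.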

How the data were processed

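Midbrain small RNA of 7 A30P and 8 WT samples was sequenced. Per the labels, RNA came from Trizol extraction and the kit was TruSeq; per the file headers, library names start with NEB, so the kit remains unclear. The submitters' processing notes name mm9 and DESeq; the sources used here name no aligner, counter or miRNA annotation. The columns named CT in the table were read as control and matched to the WT samples by number; 0 library columns were left unmapped.

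The authors deposited 1 table of 396 miRNAs. The signal value of each miRNA in a library is a normalized count, reads over that library's size factor as the authors computed it. Since all values of a library were whole multiples of 1 step (within 1e-05), whole reads could be recovered. The authors also deposited a log2 fold change, its standard error, p-values and adjusted p-values, printed only where their table is named, and group means of unstated scale (a score here), which were not used. No file gives total reads, so depth means reads of listed miRNAs.

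The main test was limma (3.58.1, trend and robust, R 4.3.3) on log2(value + 1) with Benjamini-Hochberg adjustment over all 396 miRNAs, all of which met the filter (group mean of 1 or more in A30P or WT). This scale understates changes of miRNAs whose levels lie near the pseudocount of 1. Falls of more abundant members with A30P libraries at 0 can be larger on it than by edgeR. For miR-668-3p, limma gave -6.90 and edgeR with TMM scaling -3.16. Error terms are SD or SE as given. edgeR (4.0.16) and DESeq2 (1.42.0) on the recovered reads, other scalings, pseudocounts, filters, the replicate number as a block, omitted libraries and, for arms, other read minimums were alternatives; edgeR without the A30P libraries under 100000 reads was added after seeing the data. The fits and the arm test were checked on simulated data. The arm check used large shifts of shares away from the extremes, so it does not cover small differences such as that of miR-485. Exact permutation tests were run in Python 3.11.15 with numpy 2.4.6. Other steps used scipy 1.17.1, pandas 2.3.3 and matplotlib 3.10.9. Values were named for members with a mean of at least 100 normalized counts in either group and for their opposite arms. Hairpin positions and sequences are RefSeq's for GRCm38.p6 and the Mirg gene model is from GENCODE vM21; no coordinate was taken from the files. The members, gene lists and tests were chosen with earlier results of these data known.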

Additional observations from a re-analysis of the deposited data

Results flagged for a closer look

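Of 74 groups of values examined (each named member, each tested arm share, the share of listed reads and 3 shares of cluster reads, in each genotype), 14 held a library that stood far from the others of its group. The limit is set so that chance alone flags about 1 in 20 independent groups. These groups share libraries and several hold many values at 0, so that rate cannot be set against the 14. In 11 of the 14 the library was A30P replicate 6, which is also the deepest A30P library. The part of depth was not tested. For levels, it was the highest A30P library for miR-495-3p at 517 normalized counts (the next had 107), miR-323-3p at 339 (121), miR-411-5p at 69.999 (20.1), miR-409-5p at 49.1 (20.1), miR-668-3p at 45.1 (8.52), miR-487b-3p at 25.1 (6.39), miR-410-3p at 19.7 (2.57) and miR-369-3p at 16.4 (0). For arm shares, its 5p share was 82.6% for miR-369 (100% in the next), 2.93% for miR-409 (0.926%) and 99.6% for miR-485 (99.9%). The other 3 were miR-369-5p in A30P replicate 1 at 211 (77.8 in the next), miR-668-5p in A30P replicate 8 at 5.15 (1.22) and miR-323-5p in WT replicate 1 at 290 (141).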

How the results depend on the processing

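Counts of calls differed with the tool, and with the filter through the number tested. Over all miRNAs 314 of 396 were called, against 142 of 188 with a mean of at least 100, 175 of 318 by edgeR with TMM scaling, 142 by that test when A30P libraries under 100000 reads were dropped, and 174 by the authors' adjusted p. Of the members 36 of 43 were called, against 19 of 23, 20 of 35, 18 and 17 under the same settings, and 32 to 37 when 1 library was left out. Arm shares were called for 31 hairpins, with 25 to 31 when 1 library was left out and 18 with at least 50 reads; the fit without the shallow A30P libraries could not be run for arms, since 3 A30P libraries remain. The cluster's share of listed reads differed by -0.034 points, by -0.35 to 0.25 when 1 library was left out and by 6.68 without miR-148a-3p and miR-151-3p. Relative to the deposited scaling, the median over all miRNAs (log2) moved by 0.74 with TMM, by -0.35 with listed reads and by 0.47 with listed reads without those 2 miRNAs.

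Signs turned for 8 named members. With TMM, with listed reads without those 2 miRNAs, by edgeR with TMM scaling and by edgeR without the shallow libraries, miR-541-5p was at 0.89, 0.62, 0.81 and 0.69, and miR-134-5p at 0.45, 0.18, 0.43 and 0.39. miR-300-3p was at 0.17 with TMM, 0.37 and 0.58 by edgeR with and without the shallow libraries, and 0.49 in the authors' deposited table. miR-666-5p was at 0.46, 0.78 and 0.34 in those last 3, and miR-380-5p at 1.87, 2.27 and 2.90. miR-380-5p was also at 0.43 by edgeR with deposited size factors and at 0.43 by DESeq2 with its own size factors. By limma without the shallow libraries it was at 1.44. miR-329-5p was at 0.16 by edgeR with TMM scaling and 0.68 in the authors' deposited table, miR-485-5p at -0.49 in that table, and miR-410-5p at -0.045 without the shallow libraries. The causes were not tested. Of 964 alternative values of 33 results, 865 kept direction and call. miR-379-5p and miR-381-3p kept both in all of theirs.

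Levels showed no clear pairing by replicate number: deviations of same-numbered libraries correlated between -0.13 and 0.31. Replicate 1 alone correlated best with its own number (0.12). Such correlations are weak in shallow libraries, so they cannot exclude that same-numbered samples were paired. With the replicate number as a block, 297 miRNAs, 34 members and 14 hairpins were called, and the miR-369 arm share differed by 15.0 points (adjusted p = 0.168). Depth limits the low members most, since 23 of the 43 have a WT mean under 3 reads of the shallowest library.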
